A study of Homo sapiens with 9 samples.

Results

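The comparison described here is that of MDA-MB-231 cells transfected with the second of 2 SKP2 siRNAs (libraries labelled SKP2-2, 3 replicates) with the same cells given a nontargeting siRNA (libraries labelled NC, 3 replicates). These 6 libraries were chosen by their labels, out of 9 in the series. The other 3 libraries (labelled SKP2-1) come from cells given the first SKP2 siRNA and enter the fit and the test between siRNAs. MDA-MB-231 is an established human line of triple-negative breast cancer with a mesenchymal character. All cells were harvested 96 h after reverse transfection and had been cultured alike in DMEM with serum, so the groups differ by siRNA only, as far as the labels say. The design text of the series speaks of ZIP7, the protein encoded by SLC39A7, although SKP2 is the target in its title and sample labels. The siRNA doses, sequences and supplier are not given in the sources used here. Nothing says that the replicates came from separate cultures, so the p-values reflect only how these libraries scatter, and that scatter may be technical. NC is a single control shared by both siRNAs.

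SKP2 is an F-box protein, the part of an SCF ubiquitin ligase that picks the substrate. With its cofactor CKS1 it marks the cyclin-dependent kinase (CDK) inhibitor p27, and to a lesser degree p21 and p57, for degradation, which frees CDK2 with cyclin E or A to drive the cell into DNA replication. Cells that lack SKP2 tend to accumulate p27 protein and to slow or stop at the G1/S or G2/M transition. An siRNA lowers the messenger RNA, and like any short guide it may also lower other transcripts that match its seed.

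Depth was similar throughout, with 35.5 to 49.9 M gene counts per library. Levels are given as CPM, the gene's counts per library total after TMM scaling, and a change is a log2 fold change with its standard error (SE) from a model over all 9 libraries. A gene was called when the adjusted p of edgeR's quasi-likelihood test (Benjamini-Hochberg, all 16575 genes that passed the count filter) was below 0.05. Of them 8181 (49.4%) were called, 4184 higher (25.2%) and 3997 lower (24.1%) with SKP2-2. Lists of genes are to be read against these shares. In 53.6% of genes the SKP2-2 and NC libraries did not overlap. Past a 1.5-fold change with its error taken into account (edgeR's TREAT test) there were 1388 genes (8.37%), 542 higher (3.27%) and 846 lower (5.1%). The fall side held more of the very large changes, with 6 called genes at least 8-fold lower and 1 at least 8-fold higher. The median change over all genes was 0.03.

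**Figure D1:**
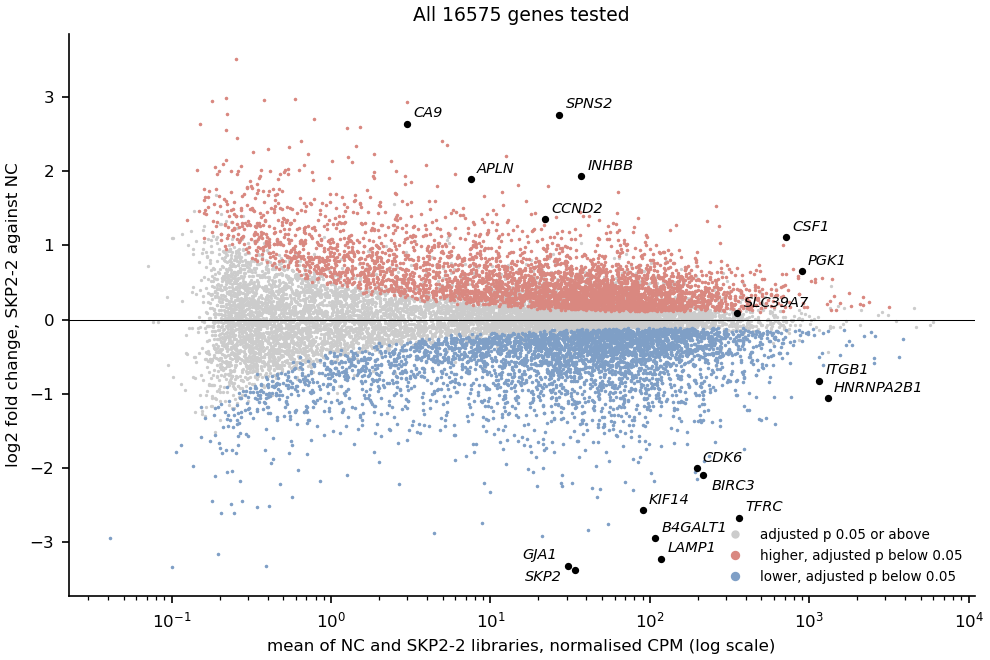
Log2 fold change of SKP2-2 against NC (vertical axis) by mean level in normalised CPM (horizontal axis, log scale) for the 16575 genes tested. Each point is a gene, red where called higher, blue where called lower and grey where not called, and the black points are named in the text. SKP2, GJA1, LAMP1 and B4GALT1 lie lowest among the named genes, near or below -2.94, whereas SPNS2 and CA9 lie highest among them at 2.76 and 2.64.

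SKP2 itself (ENSG00000145604, chr5:36151989-36184319 on GRCh38, plus strand) was at 57.5, 63.8 and 64.9 CPM in the NC replicates and at 6.09, 5.69 and 6.11 CPM in the SKP2-2 replicates. All SKP2-2 libraries were far below all NC libraries, a fall of 10.4 times (log2 fold change -3.38, SE 0.08, adjusted p = 5.35e-12). The remaining level was above that left by SKP2-1, 3.51, 3.31 and 3.91 CPM (log2 difference 0.73, adjusted p = 6.46e-06). SLC39A7, a zinc exporter of the endoplasmic reticulum, was at 339, 352 and 335 CPM in the NC libraries and 358, 376 and 359 CPM in the SKP2-2 libraries. It did not pass the threshold (log2 fold change 0.09, adjusted p = 0.0868), but passed with unscaled library sizes (0.13, adjusted p = 0.0138) and with within-group GC offsets (0.09, adjusted p = 0.0164). Of both genes, SKP2 was the one that fell.

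The mesenchymal marks of MDA-MB-231 were present in every NC and SKP2-2 library. The defining mesenchymal genes VIM, CD44, AXL, CAV1, MSN and LGALS1 had a summed level of 7040 to 7153 CPM in NC and 7961 to 8179 CPM with SKP2-2. Triple-negative tumours lack the hormone receptors ESR1 and PGR. ERBB2 was also planned as a gene to be low or absent, and its level is not reported here. ESR1 held 1 to 4 counts per library in NC and 8 to 12 with SKP2-2, and PGR 5 to 17 and 6 to 16. Of other epithelial genes looked for as low or absent, FOXA1 held 17 to 24 and 8 to 17 counts, and ESRP1 7 to 13 and 12 to 19. GATA3 and EPCAM were detected, at 458 to 490 and 446 to 682 counts and at 253 to 406 and 298 to 310 counts. Of 12 immune markers 5 passed the filter on counts, with a summed level of 6.12 to 6.49 CPM in NC and 9.15 to 9.98 CPM with SKP2-2, and 4 of these 5 rose (CD14, PTPRC, ITGAM and CSF1R, the last a call lost in 1 of 20 alternatives). The lymphoid and natural killer cell markers MS4A1, NKG7 and FCGR3A were at 0 in NC and SKP2-2, and CD3E held at most 1 count. CD3D held 0 counts in NC and 1 to 2 per library with SKP2-2, and CD68 3 to 8 and 0 to 3. Of the endothelial markers 3 passed, at a summed 9.44 to 13.5 CPM in NC and 11.8 to 20.7 CPM with SKP2-2, and CLDN5 and ERG were at 0. Among those that did not pass, CDH5 held 0 counts in NC and 2 to 4 per library with SKP2-2, VWF 1 to 4 and 2 to 14, and TEK 7 to 11 and 3 to 6. The 3 fibroblast markers that passed summed to 25.3 to 40.3 CPM in NC and 14.0 to 19.1 CPM with SKP2-2, with COL1A1 lower and LUM higher, while DCN held at most 1 count. Among the 13 luminal epithelial markers that passed 3 rose and 3 fell, and their sum was 889.9 to 1086 CPM in NC and 1063 to 1268 CPM with SKP2-2. The 3 adipocyte markers that passed summed to 2.72 to 3.09 and 1.56 to 1.76 CPM. The part of such traces in the results was not tested. These are bulk libraries, in which fewer cells of a kind and less RNA per cell cannot be told apart.

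The ligase around SKP2 and its direct partners moved unevenly. Of 17 tested genes, 1 rose (2 without NC replicate 1) and 10 fell, with a median log2 fold change of -0.16. The scaffold CUL1 (0.07, adjusted p = 0.227, a gene that passed in 3 of the 20 alternatives), the COP9 subunit COPS5 (-0.01) and the ubiquitin-like modifier NEDD8 (0.00) did not pass, and the RING subunit RBX1 rose (0.45, adjusted p = 0.000391). The cofactors that SKP2 shares with the mitotic machinery were lower. CKS1B fell from 104, 109.9 and 117 to 84.7, 79.99 and 75.5 CPM (-0.46, SE 0.05), and its paralogue CKS2 fell by 0.73 on the log2 scale. FZR1, an activator of the anaphase-promoting complex that degrades SKP2 protein, was at 79.4, 58.1 and 48.5 CPM in the NC libraries and 56.8, 66.9 and 74.4 CPM in the SKP2-2 libraries. Its groups overlapped (0.09, adjusted p = 0.718). It was called in both directions by the GC corrections, higher with within-group GC offsets (0.11, adjusted p = 0.0355) and lower with GC offsets (-0.16, adjusted p = 0.00929).

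Among the CDK inhibitors, which include the classical substrates of the ligase, 1 of 5 tested rose (2 without NC replicate 1) and 2 fell. CDKN1B, encoding p27, rose. It was at 70.5, 61.1 and 62.0 CPM in the NC libraries and 85.5, 87.8 and 99.4 CPM in the SKP2-2 libraries, without overlap (0.50, SE 0.07, adjusted p = 3.81e-05). CDKN2D, encoding p19 of the INK4 family that inhibits CDK4 and CDK6, went the other way, from 32.8, 32.5 and 30.9 to 9.94, 10.6 and 10.97 CPM (-1.61, SE 0.07, adjusted p = 1.31e-09). Its level with SKP2-1 averaged 23.4 CPM, which put the difference between siRNAs at -1.15 (log2, adjusted p = 2.24e-08). CDKN2C, its paralogue p18, fell by 0.30 on the log2 scale. CDKN1A, encoding p21, and CDKN1C, encoding p57, did not pass (-0.23 and 0.64, adjusted p = 0.0784 and 0.144). CDKN1A passed in 8 of the 20 alternatives and CDKN1C in 3, each with an unchanged sign. The ligase acts on proteins, whose levels these data do not give.

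Most genes of G1 control fell. In the list of G1 cyclins and kinases, pocket proteins and E2F factors, 16 of 22 fell and 2 rose, the cyclin genes CCND1 and CCND2. CDK6, the D-cyclin partner kinase, was at 293, 309 and 339.8 CPM in the NC libraries and 79.2, 77.4 and 78.7 CPM in the SKP2-2 libraries. All 3 SKP2-2 libraries lay within 2 CPM of each other and far under NC (-2.002, SE 0.05, adjusted p = 2.6e-11), and further under than the 149 CPM of SKP2-1 (log2 difference -0.92, adjusted p = 1.04e-08). The cyclins D1 and D2, which activate it, rose. CCND2, encoding cyclin D2, went from 11.6, 12.8 and 12.5 to 34.7, 30.8 and 28.8 CPM (1.36, adjusted p = 1.13e-08), and CCND1, encoding cyclin D1, rose by 0.55 on the log2 scale, whereas it was lower than NC with SKP2-1 (-0.45; difference between siRNAs 1.00, adjusted p = 5.05e-09). The cyclins of S phase fell. CCNE1, encoding cyclin E1, dropped from 17.0, 16.7 and 19.1 to 6.68, 5.85 and 6.32 CPM (-1.49, adjusted p = 8.19e-09), and CCNE2 (-0.95), CCNA2 (-1.05) and CDK2 (-0.50) fell as well. The E2F genes E2F8 (-0.78) and E2F2 (-0.78) were among those that fell.

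Genes of DNA replication were lower in nearly every part of the machinery. Of 16 origin licensing genes 10 fell and 1 rose (2 without NC replicate 3; median -0.51), of 32 replication fork genes 28 fell (median -0.50), and of 12 genes of deoxynucleotide synthesis 11 fell (median -0.49). CDC6, which loads the MCM helicase, was at 139, 143 and 154 CPM in the NC libraries and 74.8, 73.4 and 68.4 CPM in the SKP2-2 libraries (-1.01, adjusted p = 4.31e-09). GINS1, a subunit of the active helicase, was at 66.3, 74.9 and 79.8 CPM and 32.0, 27.5 and 29.9 CPM (-1.31), and POLD3, a subunit of the lagging-strand polymerase, fell by 1.22. In each case every SKP2-2 library was below every NC library. DUT, which keeps uracil out of DNA, was among the nucleotide genes that fell (-1.01). The licensing gene that rose was ORC2 (0.22). Most licensing and fork falls were shallower than with SKP2-1, where the medians were -0.91 and -0.92. Of 16 licensing genes 14 were called higher with SKP2-2 than with SKP2-1 and 0 lower, and of 32 fork genes 28 and 1. Over all genes 25.2% were higher and 25.3% lower in that test. Among the 12 nucleotide genes 5 were higher and 4 lower.

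Repair by homologous recombination and the Fanconi anemia pathway was lower without exception among the 17 tested genes of that list (median -0.61). FANCB, part of the core ligase of the Fanconi pathway, was at 11.7, 13.4 and 14.7 CPM in the NC libraries and 6.09, 5.99 and 5.70 CPM in the SKP2-2 libraries, without overlap (-1.17, SE 0.09, adjusted p = 2.51e-07). XRCC2, a gene of strand exchange, went from 36.2, 39.4 and 44.5 to 20.9, 19.7 and 19.7 CPM (-0.996), and the helicase gene BLM fell by 0.97 on the log2 scale. For most of the list, though, the fall was shallower than with SKP2-1, since 13 of the 17 genes were called higher with SKP2-2 than with SKP2-1.

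Among the lists, those of kinesins, mitotic kinases, cytokinesis and kinetochores had the lowest medians. All 13 mitotic kinesins fell (median -1.11), as did 24 of 25 kinetochore and spindle checkpoint genes (median -0.76), 22 of 24 mitotic kinases and anaphase regulators (median -0.84), 10 of 12 cytokinesis genes (median -0.82) and 9 of 10 genes of condensin, topoisomerase II alpha and Ki-67 (median -0.52). KIF14 (chr1:200551497-200620734, minus strand), a kinesin of the midbody, was at 145, 156 and 163 CPM in the NC libraries and 26.1, 24.7 and 27.2 CPM in the SKP2-2 libraries (-2.57, SE 0.06, adjusted p = 4.87e-12). ANLN (chr7:36389806-36453791, plus strand), encoding the contractile ring scaffold anillin, was at 553, 605 and 643 CPM and 181, 182 and 175 CPM (-1.74, adjusted p = 1.05e-10). Neither gene had any overlap between the groups. NEK2, a centrosomal kinase, went from 73.0, 74.6 and 72.3 to 16.5, 19.2 and 20.4 CPM (-1.97), NCAPG, a condensin subunit, from 211, 221 and 226 to 73.6, 78.8 and 81.1 CPM (-1.49), and PLK1, the polo-like kinase, from 149, 129 and 129.9 to 55.1, 57.8 and 66.4 CPM (-1.18). The proliferation antigen gene MKI67 fell less (-0.45). The exceptions were MAD1L1 (0.61), a checkpoint gene, and RHOA (0.31), the GTPase of the contractile ring, which rose.

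Most of these falls were shallower than with SKP2-1. Of the 13 mitotic kinesins 11 were called higher with SKP2-2 than with SKP2-1 and 2 lower, and of the 12 cytokinesis genes 7 and 2. Of the 25 kinetochore genes 22 were called higher with SKP2-2 than with SKP2-1 and none lower, and of the 24 mitotic kinases and regulators 22 were higher and 1 lower, against 25.2% higher and 25.3% lower over all genes in that test. TOP2A, for example, averaged 1040.1 ± 81.3 CPM in NC (SD, n = 3), 506 ± 14.97 CPM with SKP2-2 and 365 CPM with SKP2-1 (log2 difference 0.47, adjusted p = 1.21e-05). KIF14 was the clearest reverse case, lower with SKP2-2 than the 47.7 CPM of SKP2-1 (log2 difference -0.88, adjusted p = 3.28e-08). NEK2 (-0.30) and KIF23 (-0.18), a kinesin of the central spindle, were also lower with SKP2-2 than with SKP2-1.

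Promoters of mitotic genes commonly hold a cell cycle homology region (CHR) near the start, bound by the DREAM and MYB-MuvB complexes, often with CCAAT boxes for NF-Y upstream of it. RefSeq promoter windows of 300 bases (250 before the start to 50 after, GRCh38.p14) matched 60 of the 71 tested genes of the kinesin, kinetochore, kinase and cytokinesis lists by symbol. A CHR core, TTTGAA or TTCGAA on either strand, lay in 39 of these 60 windows (65.0%), against 16.6% of all 27305 promoters in the table and 11.5% of those of the 11542 tested genes that matched. CCAAT lay in 44 of the 60 (73.3%, against 35.7% and 36.5%). In the windows of 51 genes of licensing, fork and nucleotide synthesis the CHR core was rare (3 of 51, 5.9%), and an E2F motif (TTTGGCGC, TTTCCCGC, TTTCGCGC or TTTGCCGC, either strand) lay in 20 (39.2%, against 3.3% of all promoters and 5.3% of tested genes). A match is a run of letters and not a shown binding site. The windows of KIF14 and ANLN are shown, the mitotic genes with the deepest falls whose windows hold the CHR core. Mitotic genes were taken since their lists had the lowest medians among the lists. The windows run from 250 bases before to 30 after the start, 5′ to 3′ on the strand of the gene, with CHR cores in capitals (KIF14, chr1:200620722-200621001, minus strand; ANLN, chr7:36389612-36389891, plus strand).

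KIF14: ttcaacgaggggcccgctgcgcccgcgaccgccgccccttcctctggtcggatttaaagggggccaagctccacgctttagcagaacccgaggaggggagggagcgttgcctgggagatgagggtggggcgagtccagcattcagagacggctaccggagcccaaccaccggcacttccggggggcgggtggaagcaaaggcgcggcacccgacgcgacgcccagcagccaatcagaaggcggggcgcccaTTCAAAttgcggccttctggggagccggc

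ANLN: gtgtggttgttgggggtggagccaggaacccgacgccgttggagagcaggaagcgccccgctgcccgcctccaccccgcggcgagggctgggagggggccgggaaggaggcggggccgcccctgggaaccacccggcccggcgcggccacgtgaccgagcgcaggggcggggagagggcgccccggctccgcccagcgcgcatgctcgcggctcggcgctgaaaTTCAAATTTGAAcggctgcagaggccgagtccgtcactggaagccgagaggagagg

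The core of KIF14 begins at position 2 of the transcript, preceded by a CCAAT box, and ANLN holds 2 adjoining cores that begin 26 and 20 bases before the start. Across all tested genes with a window, having both a CHR core and CCAAT went with a larger share of falls. Of 561 such genes 39.8% were called lower and 20.7% higher, against 26.7% and 27.1% of all 11542. With the genes of the mitosis and replication lists left out, but those of the recombination, condensin and G1 lists kept, 36.0% of 528 were lower and 22.0% higher. The median GC content was 44.3% for the 561 genes and 47.8% for all 11542. The part of the GC trend in these shares was not tested. Of the 609 genes with an E2F motif 34.2% were lower and 18.7% higher. These shares are descriptions across genes, which are not independent replicates.

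Hypoxia-inducible factor (HIF) targets rose in the same cells. HIF is a dimer of an oxygen-labile alpha subunit and ARNT that drives glycolysis, pH control and blood vessel growth when prolyl hydroxylases slow down. Of 25 tested targets 20 rose and 2 fell (median 0.61), and of 23 genes of glycolysis and lactate export 16 rose and 2 fell (median 0.35, with 4 falls without NC replicate 1). With SKP2-1 the medians against NC were 0.46 and 0.09. Of the 25 targets 12 were called higher with SKP2-2 than with SKP2-1 and 6 lower, and of the 23 glycolysis genes 11 and 3. Over all genes 25.2% were higher and 25.3% lower in that test. CA9 (chr9:35673856-35681159), encoding a carbonic anhydrase of the cell surface and a widely used hypoxia marker, was at 0.984, 0.729 and 0.804 CPM in the NC libraries and 4.27, 5.83 and 5.44 CPM in the SKP2-2 libraries. All SKP2-2 libraries were far above all NC libraries, a rise of 6.22 times (log2 2.64, SE 0.16, adjusted p = 1.9e-08). CA9 was at 1.36 CPM on average with SKP2-1, which put the difference between siRNAs at 1.93 (log2, adjusted p = 1.67e-07). BNIP3, a mitophagy receptor, went from 127, 132 and 132 to 320.1, 324 and 334 CPM (1.32), and NDRG1, a stress-induced gene, from 128, 138 and 135 to 384, 393 and 384 CPM (1.53). Among glycolytic enzymes, ALDOC (1.31), HK2 (0.93) and PGK1 (0.65) rose, and PGK1 did so at a high level, from 634, 721 and 740.4 to 1135, 1106 and 1048 CPM.

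Neither HIF1A nor EPAS1 RNA rose with the HIF targets, and these data do not give the levels of the proteins. HIF1A, the main alpha subunit, was at 680.1, 629 and 653 CPM in the NC libraries and 601, 617 and 682 CPM in the SKP2-2 libraries (-0.05, adjusted p = 0.504). EPAS1, encoding HIF-2 alpha, fell from 139.9, 129.8 and 131 to 55.5, 58.7 and 63.1 CPM (-1.18, SE 0.05, adjusted p = 1.44e-09), whereas it was 163 CPM with SKP2-1 (log2 difference -1.46, adjusted p = 1.78e-10). The prolyl hydroxylases EGLN3 (0.90) and EGLN1 (0.60), which are HIF targets and act on the alpha subunits, rose. SLC2A3, encoding the glucose transporter GLUT3, went against its list, from 52.4, 56.1 and 61.1 to 16.0, 15.3 and 15.9 CPM (-1.85, adjusted p = 1.11e-10). With SKP2-1 it was higher than NC, at 85.6 CPM (0.60), and the difference between siRNAs was -2.45 (log2, adjusted p = 1.01e-11). The angiogenic factor VEGFA (-0.43) and the repressor BHLHE40 (-0.43) were the targets that fell, and LDHB (-0.44) the other glycolysis gene. SLC16A3, the lactate exporter, was at 482, 336 and 265 CPM in the NC libraries and 502, 607 and 692 CPM in the SKP2-2 libraries (0.73, adjusted p = 0.035), a call lost in 11 of the 20 alternatives.

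The core of the hypoxia response element, ACGTG on either strand, lay in the windows of 14 of 22 matched HIF targets (63.6%), against 21.6% of all promoters and 26.3% of those of tested genes. Carrying the core alone did not set a gene apart: of the 3032 tested genes with it, 27.4% were called higher and 27.4% lower. The windows of 2 HIF targets with large rises are shown. Those of CA9 and ANGPTL4, a lipase inhibitor that rose from 3.68, 1.90 and 2.26 to 5.40, 6.78 and 7.39 CPM (1.34), hold the core in capitals, beginning 18 and 234 bases before the start (CA9, chr9:35673678-35673957; ANGPTL4, chr19:8363905-8364184, both plus strand, 250 bases before to 30 after the start).

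CA9: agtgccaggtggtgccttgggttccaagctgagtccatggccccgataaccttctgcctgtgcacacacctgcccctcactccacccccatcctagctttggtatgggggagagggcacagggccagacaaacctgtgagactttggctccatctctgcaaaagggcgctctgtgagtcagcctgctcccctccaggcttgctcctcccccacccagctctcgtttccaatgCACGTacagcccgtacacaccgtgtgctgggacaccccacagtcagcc

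ANGPTL4: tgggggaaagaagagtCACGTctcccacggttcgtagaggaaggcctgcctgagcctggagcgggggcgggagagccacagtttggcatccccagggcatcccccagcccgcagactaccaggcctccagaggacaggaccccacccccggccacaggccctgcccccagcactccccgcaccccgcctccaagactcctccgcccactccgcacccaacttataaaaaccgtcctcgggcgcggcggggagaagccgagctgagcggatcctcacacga

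NF-kB factors are held in the cytoplasm by inhibitors and, once freed, drive inflammatory genes, which MDA-MB-231 cells are known to express without stimulation. The list of subunits, inhibitors and signalling proteins moved in both directions (7 of 19 higher, 5 lower, median 0.01, with 9 lower under GC offsets). BIRC3 (chr11:102317450-102339403), a ubiquitin ligase of TNF receptor signalling, was at 314, 352 and 379.7 CPM in the NC libraries and 80.5, 81.0 and 83.1 CPM in the SKP2-2 libraries (-2.10, SE 0.06, adjusted p = 5.05e-11). The SKP2-1 libraries, at 345, 343 and 341 CPM, lay within the NC range, and the difference between siRNAs was -2.07 (log2, adjusted p = 3.62e-11). REL, encoding the subunit c-Rel, fell (-0.55), and the inhibitor gene NFKBIA fell (-0.29), while RELA (-0.06, adjusted p = 0.651) and NFKB1 (0.12, adjusted p = 0.0678) did not pass, though each passed with GC offsets (-0.17 and 0.11).

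Genes of secreted inflammatory factors moved in both directions. Of 17 tested cytokine genes 3 rose and 7 fell (5 and 5 without NC replicate 3, 6 and 6 with unscaled library sizes), and of 13 chemokine genes 5 rose and 4 fell. CSF3, encoding the granulocyte growth factor G-CSF, was at 18.8, 14.99 and 12.5 CPM in the NC libraries and 2.32, 2.02 and 2.57 CPM in the SKP2-2 libraries (-2.74, SE 0.15, adjusted p = 9.09e-08). IL11 went from 155, 121 and 126 to 30.9, 33.8 and 41.4 CPM (-1.92), and the neutrophil attractant CXCL8 from 375, 401 and 435 to 160.2, 147 and 142 CPM (-1.43). CXCL1 (-1.38) and CSF2 (-0.92), the granulocyte-macrophage factor, fell with them, and in none of these did the groups overlap. IL6 fell from 188, 198 and 211 to 86.9, 80.6 and 74.2 CPM, whereas it was 393, 381 and 404 CPM with SKP2-1, above NC (log2 difference between siRNAs -2.29, adjusted p = 2.64e-11). CSF1, the macrophage growth factor, rose from 474, 455 and 426 to 979, 986 and 963 CPM (1.11, adjusted p = 2.37e-09) and was 1 of the most abundant risen genes. CX3CL1, a membrane-bound chemokine, rose as well (1.05), though less than with SKP2-1 (2.20; log2 difference -1.15, adjusted p = 1.75e-07). Of the cytokine genes 11 were lower with SKP2-2 than with SKP2-1 and 2 higher, and of the chemokine genes 10 and 1. Over all genes 25.3% were lower and 25.2% higher in that test. The medians of both lists against NC were 0.45 and 0.52 with SKP2-1, and -0.22 and -0.13 with SKP2-2.

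**Figure D2:**
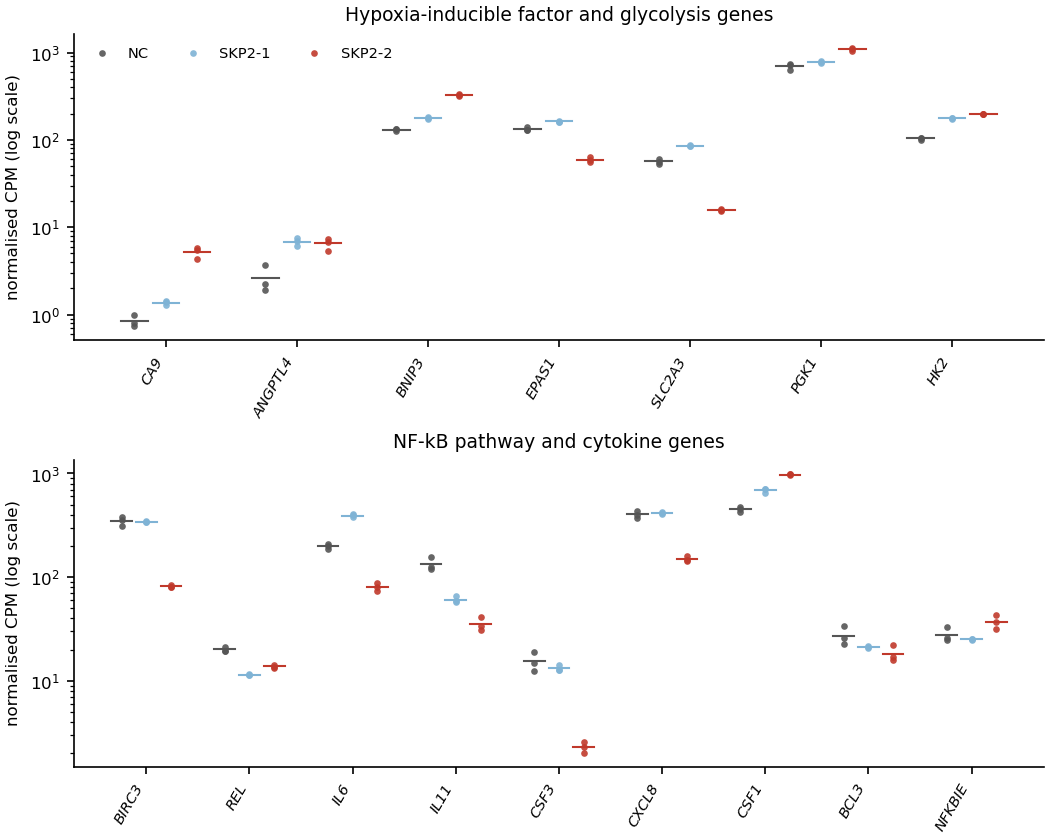
Normalised CPM (vertical axis, log scale) of HIF and glycolysis genes (upper panel) and of NF-kB and cytokine genes (lower panel) in each library. Points are the 3 libraries of NC (grey), SKP2-1 (blue) and SKP2-2 (red), and short lines are group means. CA9 and BNIP3 are higher with SKP2-2 than in both other groups, and EPAS1, SLC2A3, BIRC3, IL6 and CXCL8 stand below both other groups there.

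An NF-kB core (GGGANTTTC or GGGGNTTTC, either strand) lay in 7 of 17 matched windows of the NF-kB list (41.2%) and in 8 of 20 windows of cytokine and chemokine genes (40.0%), against 2.5% of all promoters and 2.5% of those of tested genes. Across tested genes with the core, 27.2% of 294 were higher and 29.3% lower, close to the 27.1% and 26.7% of all genes with a window. The windows of BIRC3 and REL, the called genes of the NF-kB list with the largest falls whose windows hold the core, carry it in capitals, 198 and 45 bases before the start (BIRC3, chr11:102317234-102317513; REL, chr2:60881324-60881603, both plus strand, 250 bases before to 30 after the start).

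BIRC3: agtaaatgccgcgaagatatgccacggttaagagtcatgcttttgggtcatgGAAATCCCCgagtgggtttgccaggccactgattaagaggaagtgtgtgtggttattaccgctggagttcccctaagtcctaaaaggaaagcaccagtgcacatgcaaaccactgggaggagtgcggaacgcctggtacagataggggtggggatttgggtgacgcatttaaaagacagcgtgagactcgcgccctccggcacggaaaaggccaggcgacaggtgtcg

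REL: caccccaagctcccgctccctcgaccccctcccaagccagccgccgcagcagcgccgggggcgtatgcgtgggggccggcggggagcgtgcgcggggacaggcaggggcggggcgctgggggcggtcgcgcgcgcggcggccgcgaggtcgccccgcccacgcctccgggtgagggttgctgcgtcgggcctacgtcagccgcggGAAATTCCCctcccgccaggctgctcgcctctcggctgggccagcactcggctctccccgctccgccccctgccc

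Interferon-stimulated genes fell more often than they rose, by small amounts. Of 42 tested, 3 rose (5 without NC replicate 3) and 17 fell (median -0.16), and 35 were called lower with SKP2-2 than with SKP2-1 and none higher. Over all genes 25.3% were lower in that test. With SKP2-1 the median of the list against NC was 0.58, above NC. TRIM22, an antiviral ubiquitin ligase, went from 6.77, 6.85 and 7.07 to 3.06, 3.81 and 3.21 CPM (-1.04), and PARP9 fell by 0.91 on the log2 scale. OAS1, a sensor of double-stranded RNA, rose from 0.871, 1.26 and 1.19 to 2.79, 2.61 and 2.44 CPM (1.22, adjusted p = 3.23e-05). It was the largest of the 3 rises, the others being IFIT2 (0.23) and the RNA sensor RIGI (0.22), and it was still below SKP2-1 (log2 difference -0.48, adjusted p = 0.012). In antigen presentation by MHC class I, 7 of 18 genes fell and 1 rose (2 without NC replicate 1 or 3, and 4 with GC offsets). The immunoproteasome subunit PSMB9 (-0.58) and the peptide transporter TAP1 (-0.48) were among them. PSMB9 and TAP1 overlap on opposite strands, and the sources do not say whether counting used strand.

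Lysosomal genes showed a mixture of broad small rises and a few deep falls. Of 38 genes 17 rose and 4 fell (median 0.13). LAMP1 (chr13:113297241-113323672), the major glycoprotein of the lysosomal membrane, was at 210.2, 215 and 210.3 CPM in the NC libraries and 20.9, 23.7 and 23.5 CPM in the SKP2-2 libraries (-3.22, SE 0.05, adjusted p = 1.02e-12). With SKP2-1 it was at 214, 212 and 211 CPM, with no call against NC (0.01, adjusted p = 0.936). NEU1, the lysosomal sialidase, fell from 98.0, 94.5 and 88.3 to 36.5, 39.8 and 37.8 CPM (-1.30) and was at 89.5 CPM with SKP2-1 (log2 difference -1.23, adjusted p = 6.65e-10). The remaining falls were GLA (-0.50), an alpha-galactosidase, and LAMP2 (-0.41). The rises were small and included acid sphingomyelinase, SMPD1 (0.45), and subunits of the proton pump, ATP6V1B2 (0.44) and ATP6V0A1 (0.43). Of 26 autophagy genes 14 rose and 6 fell, with the cargo receptor SQSTM1 higher (0.44) and the receptor TAX1BP1 (-1.11) and the initiation factor BECN1 (-0.67) lower.

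Iron and zinc handling moved in both directions and included some of the largest falls. Of 19 genes of iron and ferroptosis 5 rose and 7 fell (8 and 9 with GC offsets). TFRC, encoding the transferrin receptor through which cells take up iron, was at 576, 624 and 678 CPM in the NC libraries and 99.7, 98.1 and 97.7 CPM in the SKP2-2 libraries (-2.67, SE 0.06, adjusted p = 4.87e-12). The 3 SKP2-2 libraries agreed within 2 CPM, and SKP2-1 stood between at 472 CPM. SLC11A2, which carries iron out of the endosome, fell by 1.45, and ACO1, the iron-sensing RNA-binding protein, by 0.67, while STEAP3, a ferrireductase of the endosome, rose from 153, 139 and 124 to 198, 217 and 223 CPM (0.62, adjusted p = 7.89e-06). For zinc, 4 of 24 genes rose and 10 fell. SLC30A1, the zinc exporter of the plasma membrane, fell from 76.8, 79.5 and 87.0 to 27.9, 27.2 and 31.7 CPM (-1.49) and MTF1, the zinc-sensing factor that activates it, from 49.1, 54.0 and 57.7 to 21.9, 21.0 and 19.9 CPM (-1.36). With SKP2-1, SLC30A1 was higher than NC (0.53) and MTF1 was not called (0.15, adjusted p = 0.0566), with log2 differences between siRNAs of -2.02 and -1.51 (adjusted p = 6.83e-11 and 6.18e-10). The metallothionein genes MT1X (0.84) and MT1E (-0.73) moved apart, and as near-identical members of 1 family their reads may be shared between copies.

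The 12 largest falls among protein-coding genes of at least 5 CPM, apart from SKP2, CSF3, LAMP1, TFRC and KIF14 above, had diverse functions. GJA1 (chr6:121435577-121449727), encoding the gap junction protein connexin 43, was at 51.4, 57.5 and 57.8 CPM in the NC libraries and 5.72, 5.06 and 5.98 CPM in the SKP2-2 libraries (-3.31, SE 0.07, adjusted p = 4.87e-12). With SKP2-1 it was higher than NC, 92.6, 88.5 and 95.1 CPM, giving a difference between siRNAs of -4.04 (log2, adjusted p = 9e-13). B4GALT1, a galactosyltransferase of the Golgi, went from 179.7, 187 and 206 to 24.8, 24.1 and 25.6 CPM (-2.94) and FYTTD1, a factor of mRNA export, from 91.2, 96.6 and 96.3 to 13.1, 14.1 and 14.9 CPM (-2.75). SLC7A2, a transporter of cationic amino acids, fell by 2.83, USP46, a deubiquitinase, by 2.91, TDG, the thymine DNA glycosylase, by 2.40, and MATN3, a cartilage matrix protein, by 2.32. In all of these every SKP2-2 library lay far below every NC library. B4GALT1 and FYTTD1 overlap genes on the opposite strand (B4GALT1-AS1 and RUBCN).

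SLC7A2, LAMP1, FYTTD1 and CSF3 were also among the 6 largest falls in genes that moved by less than 0.25 (log2) with SKP2-1 and were called between the siRNAs. The others were GXYLT1, a xylosyltransferase of the Notch pathway, from 76.5, 80.1 and 85.6 to 16.0, 17.2 and 16.4 CPM (-2.29), and SERINC5, a lipid scramblase, from 29.7, 32.0 and 34.8 to 7.20, 6.23 and 6.92 CPM (-2.24). The 6 largest rises of that kind were smaller. They were CDC42BPG, a kinase downstream of CDC42 (1.44), CDS1, which makes CDP-diacylglycerol (1.35), TMC6 (1.253), PIK3C2B, a class II phosphoinositide 3-kinase (1.17), TMEM144 (1.1602) and SHANK3, a scaffold protein (1.156). TMC6 and SHANK3 varied among the NC libraries, at 49.1, 25.8 and 22.2 and 8.29, 5.13 and 4.27 CPM in NC, and lost their calls in 6 and 4 of the 20 alternatives. In all, 2182 genes were higher and 2403 lower both against NC and against SKP2-1.

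**Figure D3:**
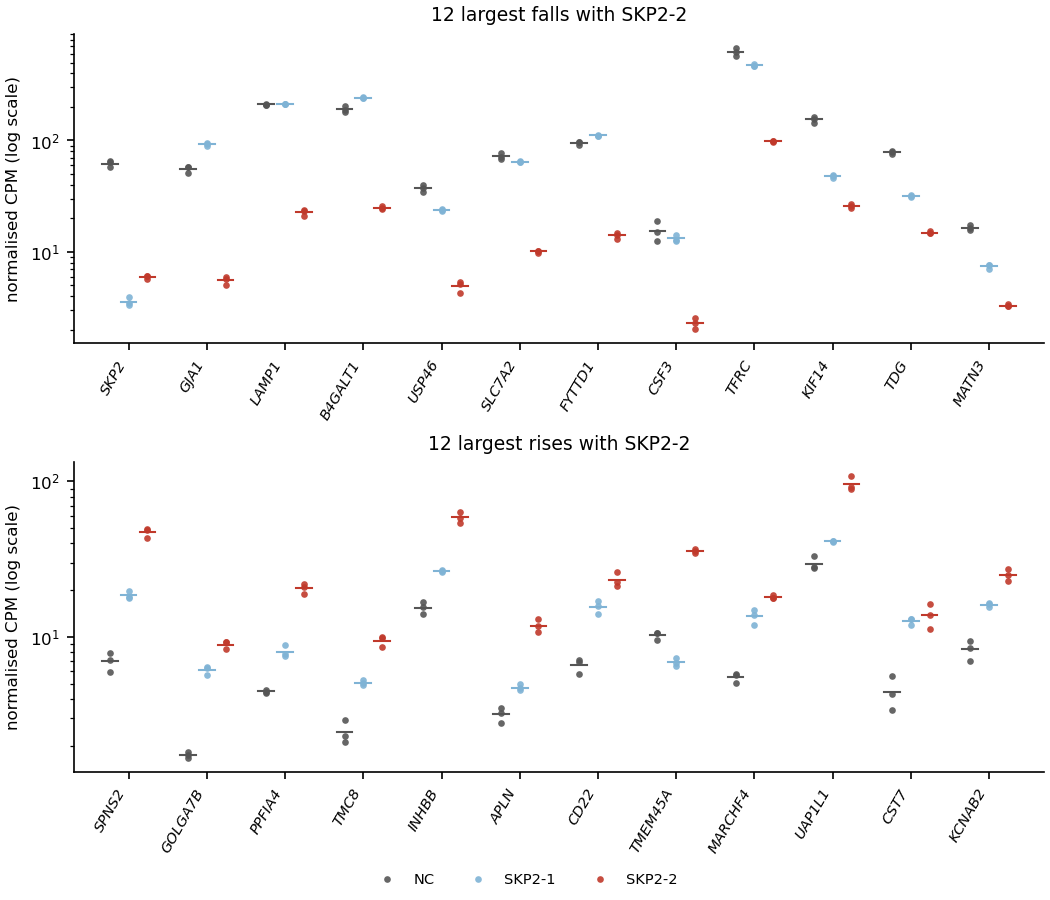
Normalised CPM (vertical axis, log scale) of the 12 largest falls (upper panel) and 12 largest rises (lower panel) with SKP2-2. Points are single libraries of NC (grey), SKP2-1 (blue) and SKP2-2 (red), and short lines are means of 3. In LAMP1, B4GALT1, FYTTD1 and GJA1 the SKP2-1 points lie at or above NC while SKP2-2 lies far below, whereas for SPNS2, INHBB and KCNAB2 SKP2-1 lies between NC and SKP2-2.

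The 12 largest rises were led by SPNS2, which exports the lipid mediator sphingosine-1-phosphate, from 7.87, 7.14 and 5.95 to 43.3, 48.6 and 49.5 CPM (2.76, SE 0.10, adjusted p = 2e-10). INHBB, encoding a subunit of activin and inhibin, went from 16.7, 15.6 and 14.0 to 54.1, 58.6 and 63.2 CPM (1.93), and APLN, the peptide ligand apelin, from 3.23, 2.79 and 3.51 to 13.0, 11.7 and 10.8 CPM (1.89). The SKP2-2 libraries of these 3 genes all lay above NC and above the SKP2-1 means of 18.6, 26.6 and 4.73 CPM (log2 differences 1.34, 1.14 and 1.32). TMEM45A, a transmembrane protein, rose from 9.61, 10.5 and 10.5 to 35.6, 36.8 and 34.7 CPM, while it was 6.87 CPM with SKP2-1, under NC (log2 difference 2.38, adjusted p = 3.56e-11). The others were GOLGA7B (2.36), the liprin PPFIA4 (2.21), TMC8 (1.96), the B-cell lectin CD22 (1.81), the ubiquitin ligase MARCHF4 (1.72), UAP1L1 (1.71), the protease inhibitor CST7 (1.66) and KCNAB2, a potassium channel subunit (1.599). CST7 was the only one of the 12 not called between the siRNAs (log2 difference 0.12, adjusted p = 0.591). TMC8 overlaps TMC6 on the opposite strand, and TMC6 overlaps TNRC6C-AS1, which rose too (1.15), so these 3 are not separate observations if counting ignored strand.

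Among abundant genes, the RNA-binding protein gene HNRNPA2B1 fell from 1617, 1813 and 1842 to 878, 838 and 818 CPM (-1.06, adjusted p = 6.46e-09), and HNRNPU (-0.59), TUBA1B, an alpha-tubulin (-0.62), and ITGB1, encoding integrin beta-1 (-0.82), fell as well. EGFR rose from 518, 532 and 549 to 822, 828 and 789 CPM (0.61), and TIMP2, an inhibitor of matrix metalloproteinases, rose from 436, 464 and 468 to 938, 911 and 891 CPM (1.00). GPRC5A (0.68) and the serine protease PRSS23 (0.62) also rose. In all of these the groups did not overlap. HNRNPA2B1 and TUBA1B have processed copies or close paralogues, so their split of reads is uncertain.

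Lipid genes gave no single direction, and the cholesterol counts lay near the shares over all genes (25.2% higher and 24.1% lower). For cholesterol synthesis and its regulators 7 of 25 rose and 8 fell, with INSIG1, the sterol-sensing brake on SREBP, from 132, 141 and 148 to 45.8, 45.1 and 44.3 CPM (-1.64) and the C4-demethylase MSMO1 lower (-1.01). Fatty acid genes leaned upward (11 of 20 higher, 3 lower), led by PLIN2, a coat protein of lipid droplets (0.82). In the TCA cycle 1 of 17 rose (3 without NC replicate 1, 4 against 4 falls with unscaled library sizes) and 5 fell, the deepest being SUCLA2, a subunit of succinyl-CoA synthetase, from 34.6, 36.7 and 38.8 to 17.2, 16.3 and 16.0 CPM (-1.15), with SKP2-1 at 35.0 CPM. Nuclear-encoded oxidative phosphorylation genes mostly were not called (20 of 25). Of them 2 rose and 3 fell (6 falls without NC replicate 1 and 7 without SKP2-2 replicate 1), and ATP5F1B, the catalytic subunit of ATP synthase, was among the falls (-0.73). Of 13 mitochondrial-encoded mRNAs 7 fell and 1 rose (median -0.28), and the 4 deepest, MT-CO2 (-0.58), MT-CO3 (-0.52), MT-CO1 (-0.50) and MT-ATP6 (-0.45), are neighbours on 1 strand. Near-identical nuclear copies of these genes make the split of their reads uncertain.

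Genes of translation and stress responses fell more often than they rose. Of 78 cytosolic ribosomal protein genes 25 fell and 1 rose (none in 12 of the 20 alternatives, among them each that left out NC replicate 1 or 2, SKP2-2 replicate 1 or 2 or 1 SKP2-1 library; median -0.10). With GC offsets 39 fell, without NC replicate 1 there were 45, and without SKP2-2 replicate 1 there were 41. RPS3 stood apart, from 803, 888 and 947 to 347, 331 and 313 CPM (-1.41, adjusted p = 1.68e-09), as did RPL15 (-1.05), both with many processed copies elsewhere. RPS3 with SKP2-1 was 835 CPM (log2 difference -1.34, adjusted p = 2.18e-09). In the ATF4 and amino acid response 4 of 30 rose (7 without NC replicate 1) and 15 fell, with SLC7A5, the large neutral amino acid transporter, from 664, 527 and 515 to 221, 234 and 276 CPM (-1.22), and CEBPB (-1.08) and CEBPG (-0.97), transcription factors of the C/EBP family. In the unfolded protein response 2 of 22 rose and 9 fell, with the disulfide isomerase PDIA4 lowest (-0.93) and EDEM1, which sorts misfolded glycoproteins, highest (0.84).

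Cell death and FOXO target genes moved in both directions. Of 14 BCL2 family genes 7 rose and 3 fell. The pro-death member BCL2L11, encoding BIM, fell from 34.5, 32.2 and 32.9 to 14.0, 15.2 and 15.1 CPM (-1.17), while the pro-death members BIK (1.91), BMF (0.74) and PMAIP1 (0.50) rose. FOXO targets were even (9 of 23 higher, 9 lower), with SESN3 falling (-1.14) and TRIB1 rising (0.96).

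Genes of TGF-beta and YAP/TAZ signalling fell more often than they rose. In the TGF-beta pathway 2 of 20 rose (4 without NC replicate 1) and 12 fell (median -0.39), among them the receptor TGFBR1 (-0.53), its effectors SMAD3 (-0.50) and SMAD4 (-0.41) and the latent binding protein LTBP1 (-0.72), while the co-receptor TGFBR3 rose (0.68). LTBP1 was at 103, 117 and 117 CPM in NC, 66.9, 70.8 and 67.4 CPM with SKP2-2 and 217, 221 and 227 CPM with SKP2-1, below and above NC. The siRNAs differed in 14 of the 20 genes, all lower with SKP2-2, against 25.3% lower over all genes in that test. With SKP2-1 the median of the list against NC was 0.13. Of 22 YAP/TAZ targets 4 rose and 12 fell, with ANKRD1 (-0.78) and CCN2 (-0.75) lower. Fibronectin, FN1, was at 696, 721 and 736 CPM in NC, 471, 475 and 463 CPM with SKP2-2 and 1174, 1274 and 1309.9 CPM with SKP2-1, and ITGA6, an integrin chain, fell by 0.68 with SKP2-2 and was 0.77 with SKP2-1. The mesenchymal transcription factor gene SNAI2 rose (0.92) and SNAI1 fell (-1.63) from about 1 CPM. CDH1, encoding E-cadherin and scarce in this line, fell further, from 10.8, 12.8 and 13.6 to 3.70, 3.83 and 4.14 CPM (-1.67). PDGFB, a growth factor of the PDGF family, rose from 1.74, 1.35 and 1.10 to 4.22, 4.26 and 4.01 CPM (1.59) and was lower than NC with SKP2-1 (-1.53), a difference of 3.12 (adjusted p = 9.07e-09). Immediate outputs of ERK signalling split, with EGR1 (-1.27) and FOS (-0.81) lower and DUSP5 (1.21) and FOSL1 (0.49) higher.

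Genes of matrix and adhesion moved in both directions, as did genes at large (25.2% called higher and 24.1% lower). The collagen and protease counts lay near those shares. Of 22 collagen and crosslinking genes 6 rose (10 without both NC replicate 1 and SKP2-2 replicate 3) and 7 fell, with the collagen chains COL1A1 (-1.41) and COL6A3 (-0.85) lower and COL16A1 (0.97) higher. COL1A1 was at 31.7, 20.6 and 18.4 CPM in the NC libraries and 6.04, 9.61 and 10.7 CPM in the SKP2-2 libraries, without overlap. Of 21 integrin and laminin genes 4 rose and 8 fell, with ITGB3, encoding integrin beta-3, from 17.2, 18.7 and 20.4 to 10.7, 9.23 and 9.06 CPM (-0.96) and the laminin chain LAMA4 higher (0.80). In that list 14 genes were lower with SKP2-2 than with SKP2-1 and 1 higher, against 25.3% and 25.2% over all genes. Its median against NC was 0.48 with SKP2-1 and -0.02 with SKP2-2. Of 21 genes of matrix proteases and their inhibitors 5 rose and 5 fell (8 without NC replicate 1 or without SKP2-2 replicate 1), with the protease ADAMTS1 lower (-0.95). Of 20 epithelial genes 4 rose and 8 fell, with MARVELD2, a tight junction protein, from 14.1, 16.3 and 16.4 to 6.07, 4.92 and 5.08 CPM (-1.55). Some luminal epithelial markers went the other way. KRT19 held 7017 to 8804 counts per library in NC and 11502 to 13975 with SKP2-2, and AGR2 616 to 990 and 2293 to 2348.

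Of 26 genes of receptor tyrosine kinases and their ligands 11 rose and 5 fell, with MET, the receptor of hepatocyte growth factor, lower (-0.63) and FGFR1 higher (0.52). NRF2 targets, which defend against oxidants, were mixed (9 of 22 higher, 6 lower, with 5 higher without SKP2-2 replicate 2), with TXNRD1, a thioredoxin reductase, from 544, 591 and 611 to 352, 342 and 342 CPM (-0.75). The aldo-keto reductases AKR1C1 (-0.85) and AKR1C2 (-0.99) fell as well, but they are near-identical copies and their reads may be shared. Of 26 ribosome biogenesis genes 3 rose and 14 fell, with POLR1B, a subunit of RNA polymerase I, lowest (-0.56).

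Genes of the machinery that makes and uses small RNAs fell more often than they rose. Of 13 genes 2 rose (1 without SKP2-2 replicate 1 or 2) and 7 fell. DICER1, which cuts small RNA precursors, was at 254, 268 and 296 CPM in the NC libraries and 112, 104 and 103 CPM in the SKP2-2 libraries (-1.36, SE 0.06, adjusted p = 1.04e-09), without overlap, and further below NC than with SKP2-1 (182 CPM, log2 difference -0.78). AGO4, an Argonaute protein gene, fell by 0.89 and the silencing scaffold TNRC6A rose (0.39). Whether any of the falls came from the seed of the siRNA was not tested, since its sequence is not in the sources used here.

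**Figure D4:**
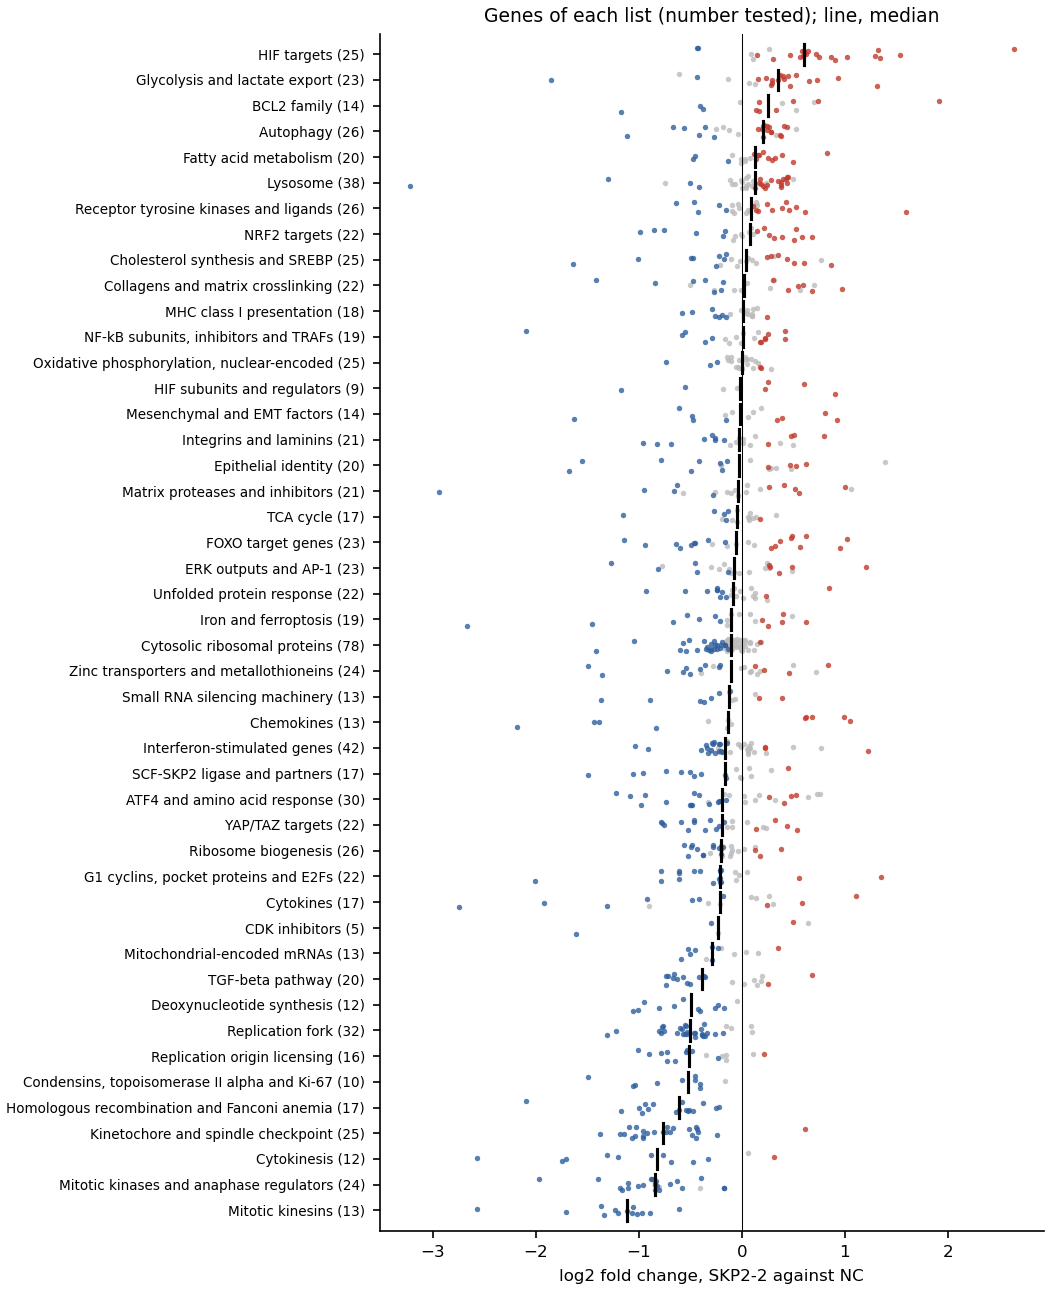
Log2 fold change of SKP2-2 against NC (horizontal axis) for the tested genes of the lists reported here other than the cell type markers, ordered by median, with the number tested in brackets. Points are genes (red called higher, blue called lower, grey not called, spread vertically at random) and black lines are medians. The mitotic and replication lists sit at the bottom with medians from -1.11 to -0.49, and HIF targets at the top with 0.61.

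Of the 2190 long noncoding genes tested 344 rose (15.7%) and 319 fell (14.6%), below the 25.2% and 24.1% of all genes tested. The largest rise of at least 5 CPM was ITGB1-DT, a transcript that starts beside ITGB1 on the opposite strand, from 4.47, 5.37 and 5.57 to 15.7, 13.1 and 12.6 CPM (1.42), while ITGB1 fell. MANCR, a noncoding RNA described in breast cancer, went from 56.2, 59.7 and 61.3 to 134, 131 and 124 CPM (1.13), and LINC01444 (1.156), LINC00702 (1.08) and the pseudogene RPL13AP20 (1.37) rose as well. The falls included CHROMR (-1.25), which overlaps PRKRA on the opposite strand, and SNHG26 (-1.11). SNHG16, a host gene of small nucleolar RNAs, fell from 119, 140.5 and 144 to 85.7, 78.8 and 77.1 CPM (-0.74). The pseudogenes HMGN2P3 (-0.86) and DDX12B (-0.77), which resemble other genes, also fell, and their reads may belong to those genes.

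The replicates of NC and of SKP2-2 differed among themselves by gene GC content, whereas those of SKP2-1 hardly did. The log2 deviation of a library from its group mean changed by 0.16, -0.03 and -0.13 per 10 percentage points of GC in NC replicates 1 to 3, by -0.09, 0.01 and 0.08 in SKP2-2 replicates 1 to 3, and by 0.00, 0.01 and 0.00 in SKP2-1. These slopes cover the 12098 genes with a mean log2 CPM above 1. For the deviations, the same genes were split by GC content into 10 bins of about 1210. In the highest bin, NC replicate 1 had a median deviation of 0.36 and NC replicate 3 of -0.30, and SKP2-2 replicates 1 and 3 had -0.25 and 0.24. All tested genes with a GC value were then split into 10 bins of about 1656. There high-GC genes had wider errors, with a median SE of 0.23 in the highest bin and 0.07 in the lowest. Removing the trend within each group left a median SE of 0.13 in the highest bin.

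The contrast itself also leaned on GC content. The median log2 fold change ran from -0.08 in the lowest GC bin (353 genes higher, 608 lower) to 0.24 in the highest (344 higher, 86 lower). With the trend removed within groups only, the ends stood at -0.08 and 0.25, and the highest bin had 686 genes higher and 124 lower. Without NC replicate 1 and SKP2-2 replicate 3, the libraries with the steepest upward trends, they stood at -0.12 and 0.33. With the trend between groups removed as well, they stood at 0.03 and -0.02, with 317 higher and 349 lower in the highest bin. That correction takes away the surplus of rises among GC-rich genes by construction, and the source of the trend was not tested. With the whole trend removed the mitotic kinesins had 13 of 13 falls (median -1.15), HIF targets 22 rises and 2 falls (median 0.65, against 20 and 2 without the correction), and the recombination list 17 of 17 falls (median -0.72). Other medians depended more on the correction. The SKP2 ligase list went from -0.16 to -0.38 and glycolysis from 0.35 to 0.24. The BCL2 family went from 0.25 to 0.16 and collagens from 0.02 to -0.10.

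**Figure D5:**
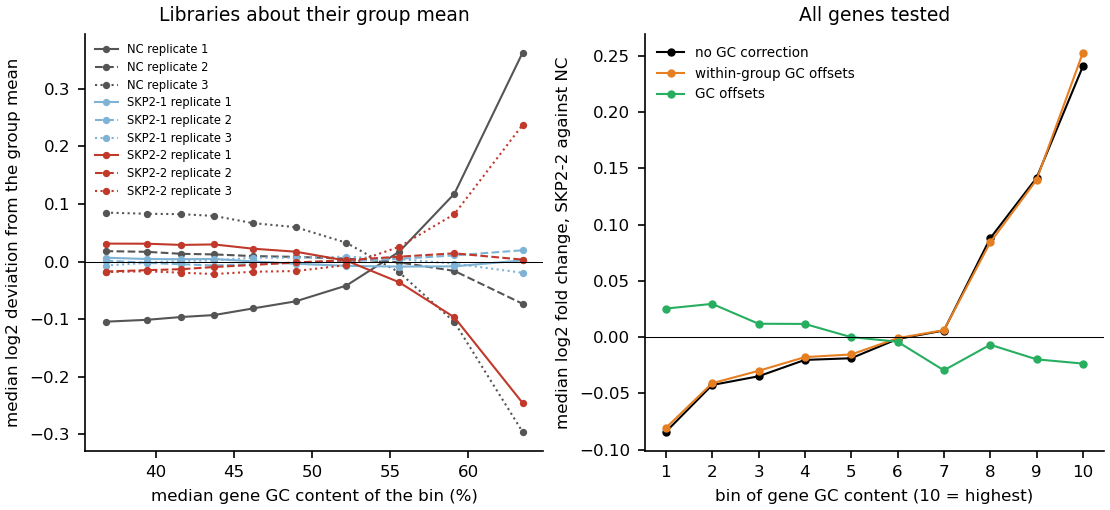
Left, median log2 deviation of each library from its group mean (vertical axis) against the median GC content of genes in 10 bins (horizontal axis, percent), for NC (grey), SKP2-1 (blue) and SKP2-2 (red) with replicates 1 to 3 as solid, dashed and dotted lines. The left panel covers the 12098 genes with a mean log2 CPM above 1, and the right panel all tested genes with a GC value. Right, median log2 fold change of SKP2-2 against NC by GC bin without correction (black), with the trend removed within groups (orange) and with the whole trend removed (green), which end in the highest bin at 0.24, 0.25 and -0.02.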

How the data were processed

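Column-purified, DNase-treated RNA was sequenced, per the labels' protocols. The values the authors deposited are raw read counts for each Ensembl gene ID, with 1 table for each of the 9 libraries. Trim Galore 0.4.1 and FastQC 0.11.2 appear in the submitters' processing notes, together with STAR, HTSeq 0.6.1 and DESeq2 1.16.1. The genome build, annotation and strand setting are not given in the sources used here. Reads counted outside genes (5.34% to 5.92% without a feature) were left out.

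edgeR 4.0.16 (R 4.3.3) tested 16575 genes (filterByExpr, minimum count 10, minimum total 15) with TMM scaling and robust quasi-likelihood, with group as the only term and all 9 libraries in the fit. The calls were first tried on simulated counts with equal spread in all libraries and no GC trend. The real libraries differ in both, so that trial cannot show how reliable the calls are here. GC content and coordinates came from GENCODE 29 (GRCh38) and promoters from RefSeq. Alternatives were other scalings and filters, DESeq2 1.42.0, fewer libraries, a replicate block and GC offsets (loess, span 0.3).

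The members and the 53 gene lists were chosen with earlier results of these data known. Named were SKP2, SLC39A7 and 3 CDK inhibitors; the 12 largest rises and falls (protein-coding, at least 5 CPM, called, no overlap); up to 4 called genes per list, with all ligase and CDK inhibitor genes; the 6 largest each way under 0.25 with SKP2-1 and called between siRNAs; 6 not protein-coding each way; and the 6 most abundant each way past 1.5-fold. CCND1, ORC2, MKI67, MAD1L1, RHOA, HIF1A, VEGFA, BHLHE40, LDHB, NFKBIA, RELA, NFKB1, CSF2, IFIT2, RIGI, LAMP2, ATP6V1B2, ATP6V0A1, TGFBR1, SMAD3, SMAD4, KRT19 and AGR2 were chosen after their values were seen. Some genes and 1 list are not reported here.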

Additional observations from a re-analysis of the deposited data

How the results depend on the processing

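Over 20 alternatives the number of genes called lay between 7190 and 9458, against 8181, with 3397 to 5034 higher and 3589 to 4654 lower, and no called gene changed sign while called. The share of calls that were higher ran from 44.5% to 56.9%. The SKP2 fall lay between -3.45 and -3.33. Leaving out each replicate in turn gave 7190 to 9149 calls. The only named gene called with the opposite sign in an alternative was FZR1, reported as not called at 0.09, which was at -0.16 with GC offsets and at -0.16 with the replicate block and GC offsets; the cause was not tested. For equal replicate numbers, the deviations of NC and SKP2-2 libraries from their group means had correlations of -0.50, 0.01 and -0.45. These libraries also differ in their GC trends, so the values cannot show whether equal numbers mark a shared culture or day. The replicate block left 3771 genes higher and 3730 lower. List counts that moved by over 1.5 times in some alternative are given with their lowest and highest value over all 20, marker lists aside. Falls did so for ribosomal proteins (25, 19 to 45), NF-kB (5, 4 to 9), matrix proteases (5, 4 to 8), oxidative phosphorylation (3, 3 to 7) and glycolysis (2, 2 to 4). Rises did so for fatty acid genes (11, 7 to 12), NRF2 targets (9, 5 to 10), the BCL2 family (7, 4 to 9), collagens (6, 5 to 10), iron (5, 4 to 8), ERK outputs (5, 5 to 8), ATF4 (4, 4 to 9), epithelial identity (4, 2 to 6), interferon genes (3, 3 to 6), cytokines (3, 3 to 6) and ribosome biogenesis (3, 1 to 4). Smaller counts of rises also moved, for TGF-beta (2, 2 to 5), the unfolded protein response (2, 2 to 4), oxidative phosphorylation (2, 1 to 4), small RNA silencing (2, 1 to 3), the TCA cycle (1, 0 to 5), MHC class I (1, 1 to 4), the SKP2 ligase (1, 1 to 3), ribosomal proteins (1, 0 to 2), and CDK inhibitors, licensing and mitochondrial mRNAs (each 1, 1 to 2), and the replication fork (0, 0 to 2). The cause was not tested. Precision is limited by 3 libraries per group, with a median SE of 0.085. That SE uses a spread shared by all 9 libraries, and the SKP2-1 replicates were closer to each other than those of NC or SKP2-2. With only the 6 NC and SKP2-2 libraries the median SE was 0.092. There 3397 genes were higher and 3867 lower, and 88.4% of the calls were kept.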
